A study of Homo sapiens with 74 samples.

Results

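Cut&Run of CNBP gave 1057 peaks in 2 lists, 421 in replicate 1 and 636 in replicate 2, of 92122 peaks in the 72 lists of 36 zinc-finger proteins (ZFPs). The members are all peaks of both lists labelled CNBP, and regions were made by merging peaks that overlapped by at least 1 bp. Merging left 759 regions, of which 275 held a peak of each replicate. CNBP's own exons and the EEF1A1 gene made up 2 of these, and the other 273 regions are the subject here.

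In Cut&Run, an antibody bound to a protein directs a nuclease to cut and release the DNA around it, which is then sequenced. HEK293T cells, a transformed human embryonic kidney line, were transfected with a plasmid that carried a human open reading frame with a C-terminal V5 tag behind the EF1-alpha promoter, and V5 Cut&Run was run on native cells after 48 h. Each replicate was 1 well of a plate, and un-transfected cells that went through the same V5 procedure were the mock IP background, with each list called against the mock IP of its own batch. Which batch each list belongs to is not known here, so differences between batches in the background were not tested in any comparison of ZFPs. The CNBP lists therefore describe an overexpressed, tagged protein in 1 cell line and not the endogenous protein. No mock IP peak list was analysed here. Libraries were sequenced to about 10M paired-end reads each, but the exact number behind each list is not known here, so no error can be given for a single fold.

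CNBP, also called ZNF9, is a small protein built of CCHC zinc knuckles and an arginine- and glycine-rich stretch. It binds single-stranded DNA and RNA, is known for guanine-rich sites and for the translation of messenger RNAs with such sites, and has been tied to the promoter of genes such as MYC. An expanded repeat in the first intron of its gene causes a form of myotonic dystrophy. Human centromeres are built of alpha satellite, a tandem repeat of units about as long as a nucleosome's DNA, and the flanking pericentromeres hold other satellites, among them arrays of the pentamer ATTCC.

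The regions fell largely into repeated sequence, and the stretches below show what that sequence is. All are the plus strand of hg38, 5′ to 3′. The first pair comes from satellite regions, shown because satellite was the most frequent class: a region that all 35 other ZFPs shared, and the satellite region of the highest fold, which here and below is ranked by the lower of the 2 replicates' folds. Capitals mark ATTCC or its complement GGAAT.
chr4 satellite in all other ZFPs, chr4:49108254-49108454: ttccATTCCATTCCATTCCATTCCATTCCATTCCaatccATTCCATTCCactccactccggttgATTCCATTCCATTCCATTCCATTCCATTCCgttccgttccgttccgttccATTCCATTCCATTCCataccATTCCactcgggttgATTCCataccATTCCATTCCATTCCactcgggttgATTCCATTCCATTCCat
chr10 satellite of highest fold, chr10:42091840-42092040: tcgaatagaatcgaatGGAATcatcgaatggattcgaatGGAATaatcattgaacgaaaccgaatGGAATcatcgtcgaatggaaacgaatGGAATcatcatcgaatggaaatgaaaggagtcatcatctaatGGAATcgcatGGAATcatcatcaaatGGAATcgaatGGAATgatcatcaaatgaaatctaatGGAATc
The second pair comes from alpha satellite, shown because it held the highest fold of the 273 regions and 1 of the 2 regions found in no other ZFP. Capitals mark the core of the CENP-B box, recognised by the centromere protein CENP-B, which reads TTCG, any 4 bases, A, any 2 bases and CGGG on either strand.
chr11 alpha satellite of highest fold, chr11:52825307-52825528: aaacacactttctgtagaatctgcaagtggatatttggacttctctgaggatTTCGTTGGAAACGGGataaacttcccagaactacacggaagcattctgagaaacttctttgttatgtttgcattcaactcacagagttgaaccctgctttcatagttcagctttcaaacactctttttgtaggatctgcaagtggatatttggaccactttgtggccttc
chr1 alpha satellite in no other ZFP, chr1:123156559-123156858: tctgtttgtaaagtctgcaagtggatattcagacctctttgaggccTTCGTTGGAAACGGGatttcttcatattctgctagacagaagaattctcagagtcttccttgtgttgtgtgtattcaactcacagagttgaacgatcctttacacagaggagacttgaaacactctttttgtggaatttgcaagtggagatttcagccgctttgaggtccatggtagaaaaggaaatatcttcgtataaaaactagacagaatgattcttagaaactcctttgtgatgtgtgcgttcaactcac
The third set comes from other tandem repeats, shown because all regions in introns of protein-coding genes were of this kind. Capitals mark a base that equals the base 1 repeat unit earlier.
PRKCA intron, chr17:66798706-66798885: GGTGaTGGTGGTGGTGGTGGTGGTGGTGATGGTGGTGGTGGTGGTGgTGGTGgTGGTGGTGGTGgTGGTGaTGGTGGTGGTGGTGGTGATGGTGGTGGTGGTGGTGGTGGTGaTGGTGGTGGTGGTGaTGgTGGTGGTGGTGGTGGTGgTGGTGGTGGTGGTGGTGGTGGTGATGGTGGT
ADAP1 intron, chr7:905996-906051: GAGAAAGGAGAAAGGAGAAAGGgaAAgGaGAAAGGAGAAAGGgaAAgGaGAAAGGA
contig with 68 bp units, chr14_GL000225v1_random:21650-21785: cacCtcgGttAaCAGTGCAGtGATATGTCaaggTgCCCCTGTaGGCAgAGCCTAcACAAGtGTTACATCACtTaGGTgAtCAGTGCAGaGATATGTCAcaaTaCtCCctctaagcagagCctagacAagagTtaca
The last pair shows the ribosomal DNA region of the highest fold, and the summit of the region on RN7SK, the promoter region of the highest fold that lay on no ZFP's own gene, without marks.
ribosomal DNA, chrUn_GL000220v1:161414-161534: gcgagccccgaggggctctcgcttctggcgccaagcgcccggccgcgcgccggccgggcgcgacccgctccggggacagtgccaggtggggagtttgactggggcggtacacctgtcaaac
RN7SK, chr6:52995662-52995782: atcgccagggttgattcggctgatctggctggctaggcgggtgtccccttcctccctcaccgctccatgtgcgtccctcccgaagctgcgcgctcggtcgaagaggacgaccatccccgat

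CNBP's own gene and EEF1A1 checked the labels, since the plasmid carries the open reading frame and the EF1-alpha promoter. The region on CNBP exons, chr3:129170454-129171804, had a fold over mock IP of 3204 in replicate 1 and 2540 in replicate 2. The EEF1A1 region, chr6:73520048-73521255, had folds of 3088 and 2197 and was present in all 35 other ZFPs. Fold here is the enrichment over mock IP that the peak caller gave at the summit, and a region takes the highest fold of its peaks in a replicate.

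Peaks on exons of other ZFPs' genes were also present in the CNBP lists. Both CNBP lists held 2 peaks on exons of SALL4, with highest folds of 10.0 and 6.97, and 1 peak on an exon of LIN28B, with folds of 6.30 and 6.15. Apart from CNBP and each gene's own lists, peaks on SALL4 exons were in the lists of LIN28B and ZFP36L1 alone, and peaks on LIN28B exons in those of SALL4 and ZFP36L1 alone. CNBP exons carried a peak in LIN28B replicate 1 at a fold of 4.56 and in both ZFP36L1 lists at 8.26 and 8.58, and in no other ZFP's list. ZFP36L1 exons carried no peak in either CNBP list. SALL4, LIN28B and ZFP36L1 own-exon folds lay between 2050 and 4488 in their own lists. Low peaks on exons of another ZFP, over 1 kb from a TSS, were also in lists of other ZFPs. Examples are APEX2 exons in the WBP4 lists, at 15.0 and 9.88, and ZNF574 exons in the ZNF706 lists, at up to 6.90 and 7.30. The source of these peaks was not tested, and the counts of other ZFPs per region are also given without LIN28B, SALL4 and ZFP36L1.

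Of the 759 regions, CNBP exons and EEF1A1 included, 36.2% (275; exact 95% interval 32.8 to 39.8) were found in both replicates. Over the pooled regions of all 36 ZFPs, without own exons and EEF1A1, the share was 14.4%, and long lists weigh most in it. By ZFP, 68.6% of the shorter CNBP list overlapped the other replicate, against a mean of 45.5% over the other ZFPs. Replicate 1 alone held 132 regions and replicate 2 alone 352. Over the 273 regions, folds ran from 1.22 to 14.4 in replicate 1 with a median of 3.19, and from 1.28 to 14.0 in replicate 2 with a median of 3.42. The 2 folds correlated across regions, with Pearson's r of 0.838 on the log2 scale and Spearman's rho of 0.818 over 273 regions, which share libraries and repeats and are not independent. Replicate 1 had the higher fold in 125 of them. The folds were low: 144 regions had a lower fold under 3, and 35 reached 5 in both replicates.

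**Figure D1:**
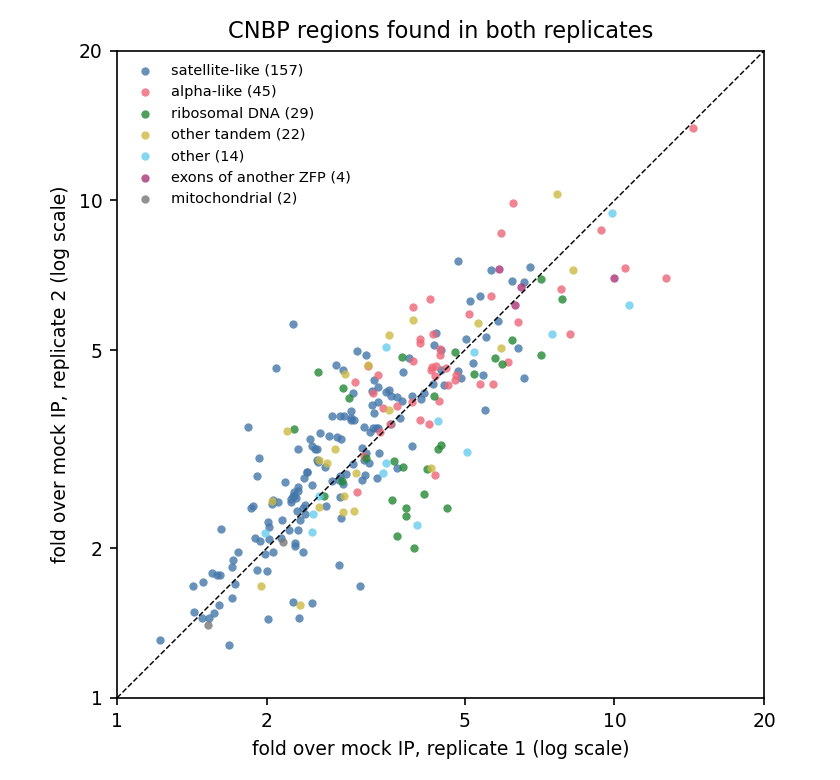
Each point is 1 of the 273 CNBP regions found in both replicates, apart from CNBP exons and EEF1A1, with its fold over mock IP in replicate 1 (horizontal) and replicate 2 (vertical) on log axes, coloured by sequence class, and the dashed line marks equal folds. Points follow the line in both directions, most lie between folds of 2 and 5, and an alpha-like region lies farthest out at 14.4 and 14.0.

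Tandem sequence of 4 classes held 253 of the 273 regions (92.7%). A region was called satellite-like where a peak had at least 5 copies of ATTCC or GGAAT within 100 bp of its summit, and alpha-like where the 750 bp on each side matched itself over at least 50% of bases at a shift of about 1 or 2 alpha-satellite units and at no short shift. Satellite-like sequence made up 157 regions (57.5%), alpha-like 45 (16.5%), ribosomal DNA 29 and other tandem repeats 22. Among the rest were 14 regions of none of these classes, 4 on exons of other ZFPs and 2 of mitochondrial sequence. The shares above are over regions of both replicates. Over all single peaks of the 72 lists, in which long lists weigh most, the shares were 10.8% satellite-like, 1.85% alpha-like and 8.18% other tandem. By the peaks of each list, the CNBP means were 44.2% satellite-like, 18.9% alpha-like and 11.6% other tandem. The means over the other ZFPs were 26.5%, 4.03% and 11.6%.

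The satellite-like regions hold pentamers by the rule of the class, at densities that varied, as between the chr4 and chr10 sequences above. They held 6 to 34 pentamers in the 201 bp around a summit, with a median of 22, and 101 of the 157 held at least 20. Their folds were the lowest of the 4 tandem classes, with medians of 2.71 in replicate 1 and 2.97 in replicate 2. By the lower of the 2 folds the highest was chr10:42091377-42092812 at 6.77 and 7.36, 56.7 kb from the pseudogene KSR1P1. Of 290 satellite-like regions, 54.1% were in both replicates (exact 95% interval 48.2 to 60), 15 in replicate 1 alone and 118 in replicate 2 alone.

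The alpha-like regions had higher folds than the satellite-like ones, with medians of 4.36 and 4.63. The chr11 region shown above, chr11:52825307-52825528, had folds of 14.4 and 14.0 and lay inside the assembly's alpha-satellite array. Next by the lower fold came chr4:49734974-49735339 at 9.38 and 8.73, chr1:123823727-123823974 at 10.5 and 7.32, and chr17:24150592-24151808 at 12.7 and 6.97. All 45 lay inside an array, and none was within 1 kb of a transcription start site (TSS). A further region inside the chr17 array, chr17:26549027-26549499, had folds of 9.87 and 9.44 and had a self-identity of 0.435 at the alpha shift, under the limit of 0.5, so it counts among the regions of no class. Of 162 alpha-like regions, 27.8% recurred in both replicates (exact 95% interval 21 to 35.3), with 29 in replicate 1 alone and 88 in replicate 2 alone.

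Chromosome 1 held 31 of the 45 alpha-like regions, and chromosome 17 held 8. By peaks, 73.6% of the 72 alpha-like peaks of replicate 1 and 77.3% of the 132 of replicate 2 lay on chromosome 1. The 53 lists of other ZFPs with at least 10 alpha-like peaks put a median of 50% there, between 6.06% and 85.5%, and the 2 ZFP36L1 lists put 78.9% and 74.8%. The CENP-B box core stood in the 342 bp around 77.8% of the alpha-like summits of replicate 1 and 83.3% of those of replicate 2, against 76.1% of the 1491 alpha-like summits of the other lists. A match to these letters on either strand does not show that CENP-B bound there. The difference was not tested.

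Ribosomal DNA regions were called where at least 50% of a region aligned at 90% identity to the stretch of chromosome 21 that holds the ribosomal RNA genes. That stretch includes the sequence between the genes and flanking sequence, and a region inside it aligns to itself. The class there therefore rests on position and needs no annotated gene. Ribosomal RNA genes encode the RNA of the ribosome, and the assembly holds a few copies of a family present in many more. Of 39 such regions, 29 were in both replicates, 13 on chromosome 21 and 16 on contigs, and their lower folds ran from 2.00 to 6.96. The highest by the lower fold, on the contig chrUn_GL000220v1:161162-161648, had folds of 7.11 and 6.96. By the RefSeq annotation of GRCh38.p14, 11 of the 13 on chromosome 21 overlapped a 45S precursor gene, 8 a 28S gene and 3 an 18S gene. Reads from near-identical copies cannot be told apart, so the 29 regions are not 29 independent sites. The other 10 were in replicate 1 alone, and 0 were in replicate 2 alone.

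The other tandem repeats included the regions in introns of protein-coding genes. In an intron of PRKCA, which encodes a protein kinase C, the 60 bp repeat shown above, which reads largely as runs of TGG (chr17:66798602-66799448) had folds of 7.66 and 10.3. In an intron of PRDM15, which encodes a zinc-finger protein of the PRDM family, a region had folds of 8.26 and 7.25 at 1.28 kb from the TSS. Introns of TMEM242, DHRSX and PTPRN2 held 4 more, with lower folds between 2.05 and 3.94. Repeats of 68 or 69 bp, the unit length of beta satellite, gave 9 regions on contigs with lower folds from 2.15 to 3.52, counting those under the 50% limit. Another 26 such regions were in 1 replicate only, 3 in replicate 1 and 23 in replicate 2.

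The replicates differed in the tandem repeats they held. Other tandem repeats made up 6.41% of the peaks of replicate 1 (27 of 421; exact 95% interval 4.27 to 9.19) and 16.8% of those of replicate 2 (107 of 636; 14 to 20), and the intervals, which cover counting error only, do not overlap. By region, 7 were in replicate 1 alone and 84 in replicate 2 alone. With 1 list on each side the difference between the replicates has no test.

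Most regions lay at or near the centromeres. Within 5 Mb of an alpha-satellite array stood 174 of the 273 regions (63.7%), and 53 were inside an array. The limit is a distance alone. Of the 174, 108 were satellite-like, 45 alpha-like, 13 ribosomal DNA of chromosome 21 and 2 other tandem repeats. The last 6 were of no class, among them the C14orf93 promoter region. Of single peaks pooled over all lists, in which long lists weigh most, 16.3% stood within 5 Mb. By the peaks of each list, the CNBP mean was 56.7%, against a mean of 30.1% over the other ZFPs. Another 57 of the 273 regions were on unplaced or unlocalised contigs, for which no distance exists. Of the 41 farther out, 23 formed a satellite block at chr1:143184652-143267555, which the assembly places 18125 kb from the array. The sequence between the 2 blocks of chromosome 1, chr1:125183211-143184651, spans 18 Mb and is unassembled.

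**Figure D2:**
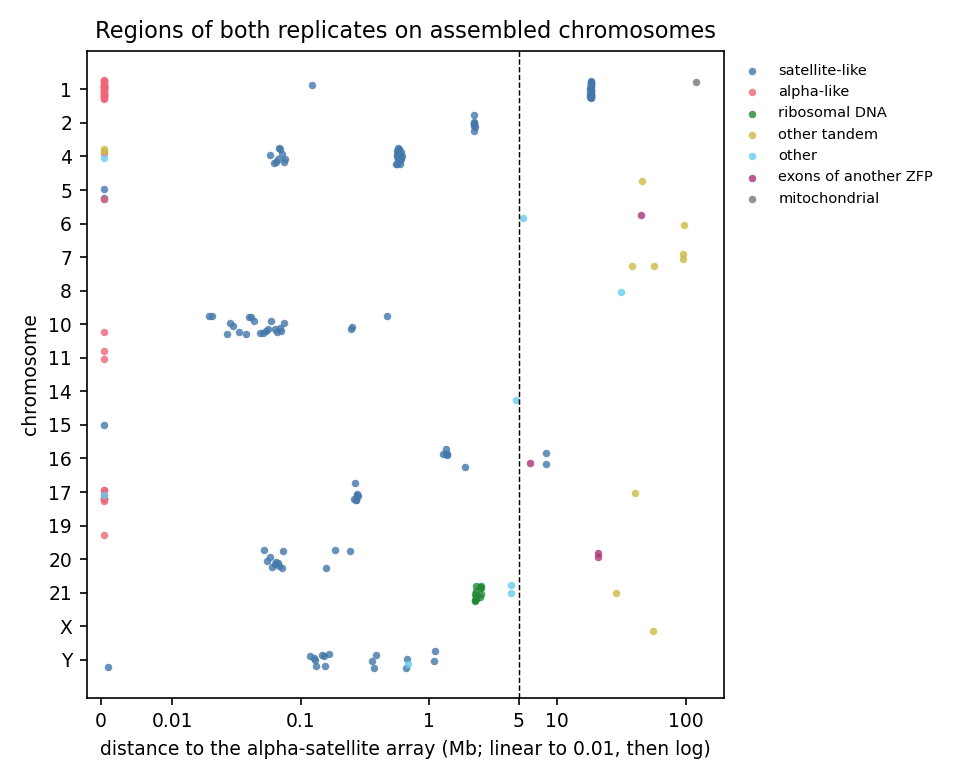
Each point is a CNBP region of both replicates on an assembled chromosome, with its distance to that chromosome's alpha-satellite array in Mb (linear near 0 and then log), one row per chromosome and coloured by sequence class, with the dashed line at 5 Mb. Alpha-like regions sit at 0, satellite-like regions mostly beyond the array and within 5 Mb, and 23 satellite-like regions of chromosome 1 stand beyond the line.

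Blocks of regions less than 1 Mb apart held most of the pericentromeric regions. The block with the most regions was chr4:49092357-49735339 with 33, of which 30 were satellite-like, at a median lower fold of 2.85. Next came chr1:121753254-125183210 with 32, of which 31 were alpha-like, at a median lower fold of 4.06, and the chr1:143184652-143267555 block with 23 satellite-like regions at 2.28. The block chr10:41859185-42092812 held 22 satellite-like regions at 2.70 and lay 19.2 kb from its array. On chromosome Y, chrY:10631023-11748014 held 17 regions at 3.29, 16 of them satellite-like. HEK293T cells are known to carry no chromosome Y, and how reads of such repeats were placed among copies was not tested. None of these 5 blocks held a region within 1 kb of a TSS.

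Few promoters were among the regions. Of the 273, 12 (4.40%) lay within 1 kb of a TSS, and 7 covered a TSS. Of single peaks pooled over all lists, in which long lists weigh most, 53.8% lay that near, and the mean of the other ZFPs' own shares was 34.1%. Widening the limit to 5 kb gave 24 CNBP regions, and counting TSSs of protein-coding genes alone left 6. The region on SALL4, which encodes a zinc-finger transcription factor of pluripotent cells, was the one of exon peaks described above, with folds of 10.0 and 6.97 at 890 bp from the TSS (chr20:51791015-51792188). RN7SK, the gene of the 7SK RNA that holds back the elongation factor P-TEFb, had folds of 10.7 and 6.15 (chr6:52995656-52995968), and 24 other ZFPs had a peak there. The same region lay 352 bp from a TSS of GSTA4, a glutathione transferase gene. MAZ, itself one of the 36 ZFPs, had folds of 5.85 and 7.29 over its promoter and exons (chr16:29807619-29808678), and 10 other ZFPs had a peak there, up to a fold of 178 in the MAZ lists.

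Repeats accounted for many of the other promoter regions. ADAP1, which encodes an ARF GTPase-activating protein, had folds of 5.92 and 5.06 over a 7 bp repeat 66 bp from a TSS (chr7:905682-906477). MUC3A, a membrane mucin, had folds of 2.74 and 3.16 over a 51 bp repeat 42 bp from a TSS (chr7:100958007-100958581). On the ribosomal DNA of chromosome 21, 4 regions covered TSSs of annotated long noncoding RNAs, with lower folds between 2.53 and 4.77. C14orf93 had folds of 5.06 and 3.12 over its TSS (chr14:23006849-23007279), with 18 other ZFPs there. Mitochondrial sequence gave the last 2, MTCO1P12 on chromosome 1, a nuclear copy, at 2.16 and 2.06 (chr1:630836-631308), and MT-TP on the mitochondrial genome at 1.52 and 1.40 (chrM:16105-16320). Each of the 12 promoter regions held a peak of at least 3 other ZFPs. At the SALL4 region these were LIN28B, ZFP36L1 and SALL4 itself, whose plasmid carries that gene's open reading frame. No further ZFP had a peak there.

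Nearest genes were mostly far away. The median distance to a TSS was 122 kb over the 216 regions on sequence with annotated genes. Of the 273 regions, 246 were intergenic, 15 intronic and 12 exonic. Within 100 kb of a TSS lay 96 regions, whose nearest genes came to 39, of which 9 were protein-coding. CWH43, the nearest protein-coding gene of the chr4 block, stood 63.7 kb from its first region, and DEFB115, a beta-defensin gene, 15.7 kb from the last region of the chr20 block. On contigs, 57 regions had no annotated gene.

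Promoter peaks of 1 replicate alone were more numerous, and several lay on small RNA genes. Replicate 1 alone held 30 regions within 1 kb of a TSS outside satellite-like and alpha-like sequence, and replicate 2 alone held 28. In replicate 1 these included RN7SL1 and RN7SL2, genes of the signal recognition particle RNA, at folds of 19.3 and 15.8, RPPH1, the RNA of ribonuclease P, at 17.1, and SNORA73B, a small nucleolar RNA, at 10.3. In replicate 2 they included MALAT1, a nuclear long noncoding RNA, at 16.4, and POLR1B, a subunit of RNA polymerase I, at 8.79. Of these regions, 14 of the 30 of replicate 1 and 4 of the 28 of replicate 2 were in no other ZFP. Over all regions of 1 replicate alone, 40.9% in replicate 1 and 19.0% in replicate 2 were in no other ZFP. At the named regions, other ZFPs with a peak there numbered 27 at RN7SL1, 23 at RN7SL2, 21 at RPPH1 and 20 at POLR1B. They numbered 7 at SNORA73B and 4 at the MALAT1 region of replicate 2. The folds of RN7SL1, RPPH1 and RN7SL2 in replicate 1 and of MALAT1 in replicate 2 exceeded 14.4, the highest of the 273 regions found in both. Replicate 1 also had a peak at a TSS of MALAT1, at a fold of 6.11 (chr11:65500448-65500636), which did not overlap that of replicate 2 (chr11:65504740-65505171). Both overlapped the MALAT1 gene. Any annotated transcript start counts here as a TSS, so neither need mark the gene's main promoter. The regions were named after their values were seen.

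Genes tied to CNBP in earlier work had no CNBP peak near their TSS where examined. For none of MYC, HMGCS1, CSF1, IL6, IL12B, REL, ODC1 and TAPBP was a peak of either replicate within 1 kb. Among the other ZFPs, the number with a peak that near ran from 0 at IL12B and TAPBP to 4 at ODC1. The nearest CNBP peaks stood 2138 kb from TAPBP and 4165 kb from MYC, both in replicate 1. Of 85 ribosomal protein genes, 1 had a CNBP peak, RPS29 in replicate 1, where the peak is the one on RN7SL1 beside it. The other ZFPs had a median of 2.00 such genes and up to 28 for ZNF22. Of 6 genes of translation elongation factors, EEF1A1 alone had a peak. That is the region of the plasmid's promoter, and all 35 other ZFPs had a peak there. The CNBP lists held 43 peaks each within 1 kb of any TSS, so a count of 0 among a few genes does not show that CNBP is absent there.

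Guanine-rich motifs were rare at the summits. Windows of 201 bp with 4 runs of at least 3 guanines, or 4 such runs of cytosines, each run 1 to 7 bases from the next, made up 3.33% of the peaks of replicate 1 and 1.89% of those of replicate 2, against 17.8% of the 91065 peaks of the other lists, in which long lists weigh most. By ZFP, the CNBP mean of 2.61% was number 7 from the lowest of 36, the other ZFPs had a mean of 10.9%, and those lower included SALL4 at 1.08%, ZFP36L1 at 1.26% and ZNF317 at 2.31%. No satellite-like or alpha-like CNBP peak held one, and 9 of 9487 satellite-like peaks of the other lists did. The median GC content of both CNBP lists was 41.8%, against a mean of 54.1% over the other ZFPs. TGGAG, the core of the motif that CNBP is known to bind in RNA, a search added after other values were seen, stood on either strand in 45.4% and 48.3% of the windows, against 47.2% in the other lists. Within classes it stood in 63.2% of 204 alpha-like CNBP peaks against 55.4% of those in other lists, and in 51.8% of 467 satellite-like CNBP peaks against 45.3%. Peaks at the same repeats are not independent, and these differences were not tested.

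Set among the 36 ZFPs, CNBP lay toward the centromeric end. Each ZFP was given the mean of its 2 lists, and the exact two-sided permutation test put each ZFP in the place of CNBP, so that the smallest p is 0.0278, and 5 tests were adjusted together. Pericentromeric peaks made up 56.1% of replicate 1 and 57.4% of replicate 2, a mean of 56.7% ± 0.943 (SD, n = 2), against 30.1% ± 14.9 (SD, n = 35) in the other ZFPs, and CNBP ranked 3 behind ZFP36L1 and ZNF317 (exact p = 0.0833, adjusted p = 0.417). Satellite-like peaks made up 44.2% in each replicate against 26.5%, ranking 8 (exact p = 0.5, adjusted p = 0.5). Peaks within 1 kb of a TSS made up 10.2% and 6.76%, a mean of 8.49% against 34.1%, with 3 ZFPs lower (exact p = 0.333, adjusted p = 0.5). None of these differences was past the threshold of 0.05: 2 other ZFPs lay as far from the rest in the pericentromeric share.

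**Figure D3:**
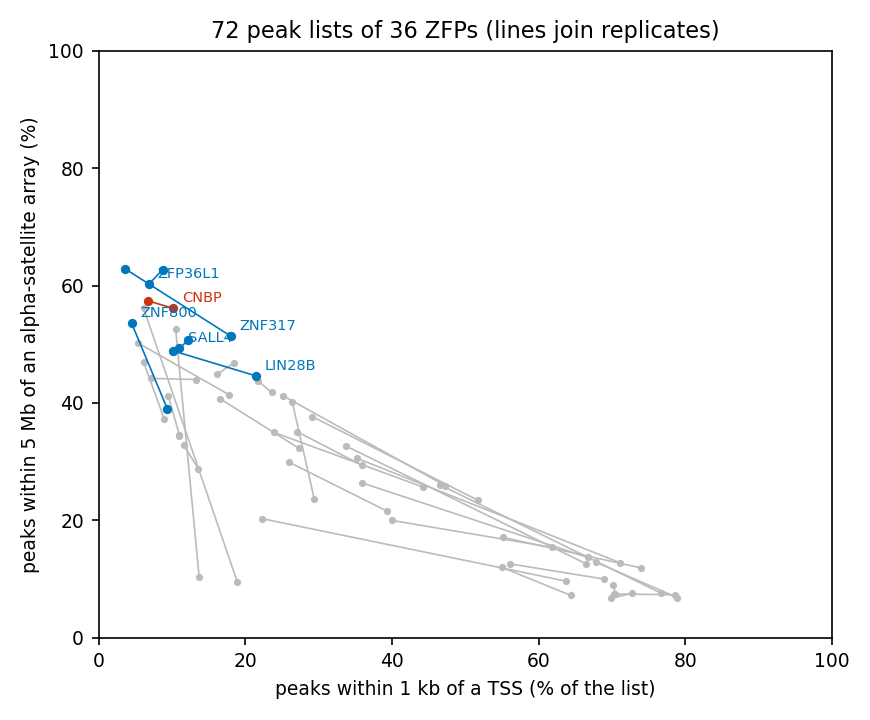
Each point is 1 of the 72 peak lists, with the share of its peaks within 1 kb of a TSS on the horizontal axis and within 5 Mb of an alpha-satellite array on the vertical axis, both in percent of the list, and lines join the 2 replicates of a ZFP. The CNBP lists (red) sit at 10.2% and 56.1% and at 6.76% and 57.4%, near those of ZFP36L1 and ZNF317 (blue), at the end of a trend along which lists with more promoter peaks have fewer pericentromeric ones.

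Alpha-like peaks were the class in which CNBP ranked highest, at 2 of 36. They made up 17.1% of replicate 1 (72 of 421; exact 95% interval 13.6 to 21) and 20.8% of replicate 2 (132 of 636; 17.7 to 24.1). The mean of 18.9% was second to 24.9% in ZFP36L1, and the other 35 ZFPs had a mean of 4.03% and a median of 2.54%. This measure was chosen after its values were seen, so no test is given.

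The replicates of CNBP overlapped each other and the other ZFPs' lists. Of the shorter list, 68.6% overlapped a peak of the other replicate, against 45.5% ± 19.1 (SD, n = 35) in the other ZFPs, ranking 4 (exact p = 0.250, adjusted p = 0.5). The other ZFPs, here and throughout, include CPSF4, MBNL1, SNRPC, TRIM55, ZC3H3 and ZMAT5. The paper's summary of results gives no Cut&Run target count for these. Their shares were, in that order, 30.4%, 22.7%, 42.9%, 1.75%, 13.3% and 1.05%. Among the 30 ZFPs left without them the CNBP difference was 17.6 percentage points in place of 23.2 (exact permutation p = 0.300). Without satellite-like peaks the CNBP value was 50.2%. Peaks that overlapped a peak of any other ZFP made up 86.7% of replicate 1 and 89.0% of replicate 2, against a mean of 80.3% in the other ZFPs (exact p = 0.444, adjusted p = 0.5). With LIN28B, SALL4 and ZFP36L1 left out, the CNBP mean was 84.6% in place of 87.8%, a difference of 5.05 percentage points from the rest (exact p = 0.667). Neither difference was past the threshold.

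Region by region, nearly all of the 273 were shared. The median region was found in 21 of the 35 other ZFPs, and 162 regions (59.3%) in at least 18, against 34.4% of the 11136 regions that the other ZFPs had in both replicates. ZFPs with many regions, such as APEX2 with 1367 and CISD1 with 1109, weigh most in this pool. No share by ZFP was made for this count. With the ZFP as the unit, the share of peaks that overlapped another ZFP, given above, was not past the threshold. Regions found in no other ZFP numbered 2, against 3.06% of those 11136 regions. One lay 1.08 kb from the TSS of FAM86B2, just beyond the promoter limit (chr8:12437486-12437726), with folds of 7.50 and 5.40. The other was the chr1 alpha-like region shown above (chr1:123156559-123156887), with folds of 4.06 and 3.62. Without LIN28B, SALL4 and ZFP36L1, the median region was in 18 of 32 other ZFPs, 144 regions (52.7%) were in at least 18, and 8 had no other ZFP. With all ZFPs kept, 25 regions were in both replicates of none.

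Sharing differed by class. Satellite-like regions were in a median of 22 other ZFPs, ribosomal DNA in 26 and other tandem repeats in 24.5, while alpha-like regions were in a median of 6. Without LIN28B, SALL4 and ZFP36L1 these medians were 19, 23, 22 and 3. Of the 45 alpha-like regions, 21 were in at most 5 other ZFPs, against 8 of 157 satellite-like ones, and 19 were in no other ZFP's both replicates. The 6 regions that tied for the most ZFPs were satellite-like, each in all 35 others and in 66 of their 70 lists: chr1:143219547-143221106, chr17:21975801-21977140, chr4:49107141-49111036, chr1:143222085-143223053, chr5:49601224-49602894 and chr5:49656751-49661544. Their CNBP folds ran from 1.83 to 3.86 in replicate 1 and from 2.51 to 4.82 in replicate 2. All 29 ribosomal DNA regions were in at least 22 other ZFPs, whereas RNF14, ZNF574 and RBM5 had a peak in none of them.

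**Figure D4:**
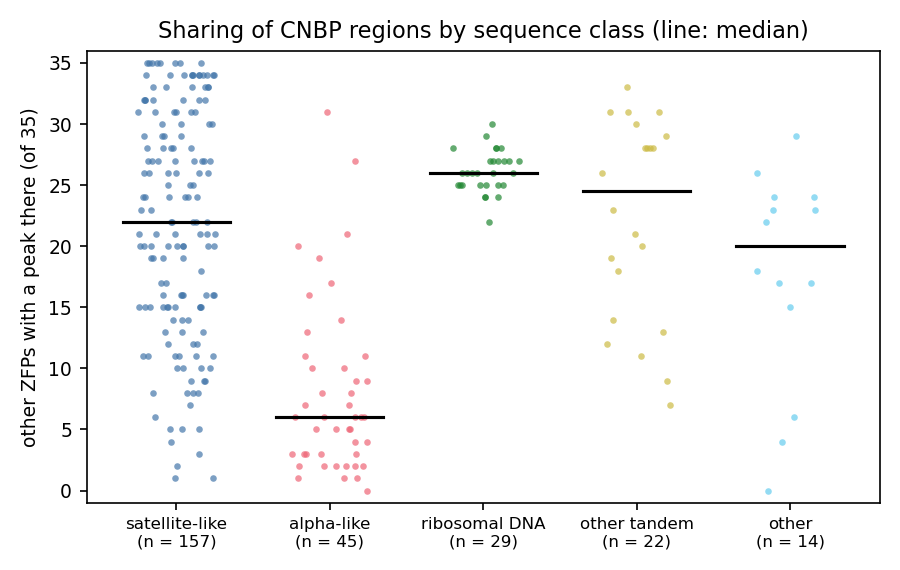
Each point is a CNBP region of both replicates, placed by its sequence class and by the number of the 35 other ZFPs with an overlapping peak, with a line at each class's median. The alpha-like median of 6 lies well under the 22 of satellite-like, 26 of ribosomal DNA, 24.5 of other tandem and 20 of unclassed regions.

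CNBP's own folds at these shared sites were seldom the highest. In 4 of the 273 regions (1.47%) both CNBP folds lay above every fold of every other ZFP with a peak there. The share was 4.45% of the other ZFPs' regions pooled, in which ZFPs with many regions weigh most. By ZFP it ran from 0% in LIN28B, among others, to 20.5% in CTCF, and ZFP36L1 at 1.35% and PHF7 at 1.34% lay close to CNBP. The 4 CNBP regions were the chr17 array region at 9.87 and 9.44, where the next highest was 8.30, and alpha-like regions on chromosomes 1, 10 and 19. No satellite-like, ribosomal DNA or other tandem region was among them. At the chr11 alpha-like region the highest fold of another ZFP was 15.3, against 14.4 and 14.0 in CNBP. No error can be given for a single fold, so an order between ZFPs at a region has no test.

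LIN28B, which blocks the processing of let-7 microRNAs, had a peak in 245 of the 273 regions (89.7%), and ZFP36L1, which destabilises messenger RNAs with AU-rich elements, in 237 (86.8%). SALL4 followed with 75.8%, ZNF800 with 72.9%, and BRCA1 and TEX13A with 72.5% each. Of their own regions in both replicates, 79.7% of LIN28B's, 80.7% of ZFP36L1's, 78.7% of SALL4's and 50.8% of ZNF800's overlapped a CNBP region of both replicates. For BRCA1 and TEX13A this share was 61.5% and 60.4%. It was higher than in all of these for ZNF317 at 96.9% of 98 regions, ZNF2 at 90.1%, NANOS2 at 87.3% and CNOT4 at 87.0%. ZNF317 had a peak in 58.6% of the CNBP regions. The lowest shares were CTCF, the insulator protein, with 19.4%, CPSF4L with 20.9%, ZMAT5 with 25.6%, RNF113A with 29.3% and RBM5 with 36.3%. Lists ran from 15 to 8702 peaks, and the part of list length in this order was not tested.

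**Figure D5:**
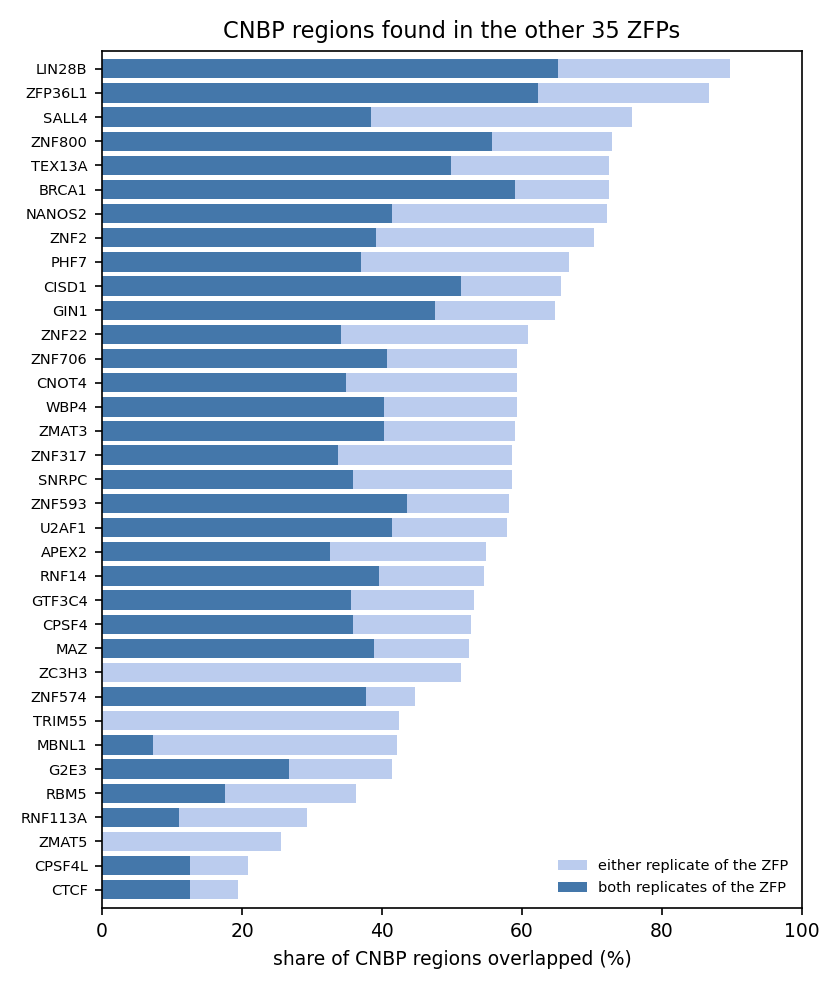
Bars give the share of the 273 CNBP regions, in percent, that at least 1 list of each other ZFP overlaps (light) and that both its lists overlap (dark), ordered by the light bar. LIN28B at 89.7% and ZFP36L1 at 86.8% stand at the top and CTCF at 19.4% at the bottom, and the dark bars are 65.2% for LIN28B and 62.3% for ZFP36L1.

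Among the alpha-like regions the order was another. ZFP36L1 had a peak in 35 of the 45 (77.8%) and LIN28B in 30 (66.7%), followed by BRCA1 and PHF7 with 19 each (42.2%). SALL4 had 13 (28.9%), ZNF593, MAZ, RBM5 and CPSF4L 1 each, and CTCF and RNF113A none. Among satellite-like regions the shares were 96.2% for LIN28B, 93.6% for BRCA1 and 89.8% for ZFP36L1, with CTCF lowest at 10.2%.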

How the data were processed

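Peak lists of V5 Cut&Run in HEK293T cells were analysed for 36 ZFPs with 2 replicates each. The 2 mock IP samples have no list here. Per the labels and methods, the authors trimmed reads with Trimmomatic 0.36, aligned them to hg38 with Bowtie2 2.3.5.1, removed duplicates with Picard 0.1.8 and called each replicate against the mock IP of its batch with MACS2 2.2.7.1 at a q-value of 0.05. The deposited columns are a score, the fold ratio over mock IP at the summit, −log10 p-values and q-values, and the summit's offset. Multiply mapped reads in repeats can shift both place and fold of such peaks. Peaks were merged within CNBP (1 bp overlap) and set against GENCODE TSSs with pysam 0.24.0, pandas 2.3.3 and blastn 2.17.0, and scripts were tested on simulated data and against bedtools 2.31.1. Classes rest on sequence letters alone, with no repeat annotation. An alpha-satellite array is a run of 10 kb windows of such sequence, with a shift of 171 bp read from chromosome X. Shares of single lists have exact Clopper-Pearson 95% intervals, which cover counting error only. Groups came from sample titles. Each replicate was a separate well, so the spread may be partly technical.

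The members and lists were chosen with earlier results of these data known. Named regions were CNBP exons and EEF1A1, the 10 of highest lower fold of the 2 replicates, each promoter region of both replicates, up to 5 in no other ZFP, the 5 in most ZFPs (6 tied), the 5 blocks with most regions, listed genes, and the 5 ZFPs at each end of the sharing order. Some listed genes and sequences are not reported here. Alternatives changed the q-value limit, list length, replicates, ZFPs, distances, pentamer minimum and overlap.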

Additional observations from a re-analysis of the deposited data

How the results depend on the processing

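The 5 shares compared over ZFPs kept their direction and their side of the threshold in all 58 alternative calculations, with exact permutation p from 0.0556 to 0.722. The pericentromeric difference ranged from 17.8 to 28.8 percentage points and the TSS difference from -29.6 to -20.5. With the replicate number as a block the pericentromeric difference was 26.6 and the TSS difference -25.6, as without it, since each ZFP has both numbers, and the block changed no call. The numbers are only names of wells, so no pairing is implied. Without CNBP replicate 1 or 2 the pericentromeric difference was 27.3 or 26. Without the libraries labelled U2AF1, whose lists have no peak on U2AF1 exons, it was 26.7. Leaving out LIN28B, SALL4 and ZFP36L1, not counting assembly gaps, or leaving out alpha-like peaks were choices made after seeing the data, and they gave pericentromeric differences of 28.8, 27.2 and 18.8. The count of 273 regions in both replicates was 245 at a q-value of at most 0.001 and 266 with an overlap of 50% of the shorter peak. The 12 promoter regions became 24 within 5 kb and 6 with TSSs of protein-coding genes alone. The 2 regions in no other ZFP became 25 where both replicates of another ZFP had to be present and 8 without LIN28B, SALL4 and ZFP36L1. Counts that need both CNBP replicates could not be made with 1 left out. With 2 lists a ZFP, no outlier among replicates can be tested. The exact depth per library, and with it the smallest fold that could be called, is not known here.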
